A study of Mus musculus with 4 samples.

Results

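The major histocompatibility complex (MHC) class II genes described here are Cd74, H2-Aa, H2-Ab1, H2-Eb1 and Ciita, 5 of the 31053 genes counted in single-cell libraries of mouse T-cell progenitors. They were picked by symbol, with their values in these libraries already known, and cells were divided by whether they held at least 3 unique molecular identifiers (UMIs, each standing for 1 captured RNA molecule) of H2-Aa. By this division 1423 of 8797 cells assigned to a hashtag were H2-Aa cells in experiment 1 and 2274 of 8335 in experiment 2. Levels, shares and ratios of these genes are therefore descriptions and carry no test.

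Progenitors from mouse bone marrow were grown on OP9-Dll1 stromal cells, which present the Notch ligand Dll1, with IL-7 and Flt3-ligand at 10 ng/ml each, and vectors were delivered on day 2. In one arm, cells of B6.Bcl2 transgenic mice aged 8 to 10 weeks received MSCV-Runx1-mCherry or MSCV-empty-mCherry and were harvested on day 4 or 6. In the other, cells of B6.Cas9;Bcl2 transgenic mice received E42-gRunx1-hNGFR with E42-gRunx3-mTurquoise, using 3 guide pairs for each gene, or E42-gControl vectors with the same reporters and guides against luciferase, and were harvested on day 5 or 8. Live CD45+ cells without lineage markers and with the reporters were sorted, every experimental replicate carried its own hashtag (an antibody with a DNA barcode), and equal numbers were pooled into 1 mRNA library per experiment. All groups carry the Bcl2 transgene, a survival factor. The labels give 4 to 5 days of culture for experiment 1 and 4 to 8 days for experiment 2. The 8 hashtag columns of each experiment name no vector, guide or day, so hashtags 1 to 8 are given as unlabelled samples, numbered in column order within each experiment, and no condition is compared. Whether any hashtags are separate animals is not given in the sources used here.

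Class II molecules are pairs of an alpha and a beta chain that show peptides from the endosome to CD4 T cells. H2-Aa and H2-Ab1 encode the chains of the I-A molecule, H2-Eb1 encodes the beta chain of I-E, and Cd74 encodes the invariant chain that fills the groove until the endosome is reached. Ciita encodes a coactivator that does not bind DNA itself: it docks on RFX, NF-Y and CREB factors bound to the X and Y boxes of class II promoters. Dendritic cells and B cells express Ciita constitutively, and interferon gamma induces it in other cells, in part through Irf1.

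Hashtagged cells had a median of 24753 UMIs in experiment 1 and 26338 in experiment 2, and the sum over a hashtag ranged from 14502385 to 38067298 and from 22272716 to 42684236 UMIs. Kit was detected in every hashtag (54.3 to 89.0 and 26.4 to 56.5 CPM, the UMIs of a gene scaled to the total of the hashtag), and the 10 T progenitor markers summed to 513 to 1230 CPM and 303 to 1794 CPM. Other lineages were also present: summed granulocyte markers reached 1518 CPM in a hashtag of experiment 1 and 12086 CPM in one of experiment 2, and stromal markers reached 82.6 and 808 CPM. Runx1 ranged from 38.2 to 241 CPM and from 33.7 to 121 CPM over the hashtags, and these counts do not separate vector from endogenous transcripts. The mRNA libraries shared 39 cell barcodes, 28 of them hashtagged in both, and 12 of those held at least 3 H2-Aa UMIs in either library.

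The X and Y box cores were searched in the promoters in the RefSeq tables (build GRCm38.p6), in the 250 bases before each start. The pattern, chosen after the sequences were seen, was GCAAC (core of the X box) followed after 15 to 45 bases by TGATTGG (Y box, the reverse of the CCAAT box), on either strand and with no overlap of the motifs. Of 32851 promoters, 0.256% held the pattern, while GCAAC alone was in 29.9% and TGATTGG alone in 7.23%. The H2-Aa (chr17:34287857-34287924, minus strand) and H2-Eb1 (chr17:34305756-34305822, plus strand) matches are shown because these genes followed each other most closely over the hashtags, and H2-Oa (chr17:34092283-34092350, plus strand) because it held the pattern while its levels had another order. Capitals mark the motifs.
H2-Aa: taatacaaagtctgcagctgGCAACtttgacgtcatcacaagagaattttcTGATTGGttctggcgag
H2-Eb1: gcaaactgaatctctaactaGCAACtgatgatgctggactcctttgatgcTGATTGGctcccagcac
H2-Oa: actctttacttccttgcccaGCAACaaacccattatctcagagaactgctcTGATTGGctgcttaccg
GCAAC began at position -81 from the start in H2-Aa, -91 in H2-Eb1 and -76 in H2-Oa, and the motifs were 26, 25 and 26 bases apart. H2-Eb2 and H2-Ob held the pattern too. H2-DMb1 and H2-DMb2 held TGATTGG only, and H2-DMa and the class I gene B2m held neither in these windows. The tables used here gave no promoter for H2-Ab1, Ciita or Cd74. A match of letters describes the window and no binding was measured. On GRCm38.p6, H2-Aa lies at 34282744 to 34287823, H2-Ab1 at 34263227 to 34269418 and H2-Eb1 at 34305867 to 34316674 of chromosome 17, and Ciita at 10480014 to 10531064 of chromosome 16.

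All 5 genes were present in every hashtag, and all 5 separated the same hashtags of experiment 1 into low and high. H2-Aa, the I-A alpha chain, stood at 20.0, 31.8, 88.2, 84.3, 25.4, 166, 20.8 and 118 CPM in hashtags 1 to 8 of experiment 1. Hashtags 3, 4, 6 and 8 were high and the other 4 were low, with no value between 31.8 and 84.3 CPM. By exact 95% Poisson intervals, which cover counting error only, hashtags 1 and 7 overlapped and so did 3 and 4; the other neighbours in the order did not. In experiment 2, H2-Aa stood at 37.9, 65.8, 231, 244, 341, 289, 101 and 258 CPM. Hashtags 3, 4, 5, 6 and 8 were high there, hashtags 1 and 2 were low, hashtag 7 lay between them, and no neighbouring intervals overlapped. Because the same hashtag number in the 2 experiments marks different replicates, the numbers do not tie them together.

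The other chains followed H2-Aa. H2-Ab1, the I-A beta chain, ranged over hashtags from 31.9 CPM (hashtag 7) through a median of 79.8 to 189 CPM (hashtag 6) in experiment 1, and from 46.9 (hashtag 1) through 269.5 to 364 CPM (hashtag 5) in experiment 2. H2-Eb1 ranged from 17.8 (hashtag 7) through 46.6 to 142 CPM (hashtag 6), and from 32.4 (hashtag 1) through 225 to 307 CPM (hashtag 5). Counts were of 3′ ends, so differences in UMIs between genes are not read as differences in transcript number. Ratios between genes are compared only between groups of cells or hashtags. H2-Eb2, another class II beta chain, had only 5 UMIs in experiment 1 and 90 in experiment 2, so it was close to undetected at this depth.

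Cd74, the invariant chain, stood at 66.2, 97.3, 211, 197, 61.3, 389, 69.4 and 377 CPM in experiment 1. In experiment 2 it stood at 139, 181, 793, 779, 1088, 1040, 328 and 765 CPM. Its high hashtags were those of H2-Aa in both experiments. Ciita, the coactivator, was much sparser, with 57 to 549 UMIs per hashtag in experiment 1 and 163 to 1086 in experiment 2. Its levels were 4.05, 5.51, 15.4, 16.4, 4.35, 19.5, 2.57 and 12.6 CPM, and then 4.75, 9.57, 19.8, 32.1, 37.99, 28.7, 8.03 and 16.6 CPM. The coactivator was therefore high in the hashtags where its class II targets were high, with hashtags 3 and 4 of experiment 1 above hashtag 8 for Ciita (15.4 and 16.4 against 12.6 CPM) but below it for H2-Aa.

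**Figure D1:**
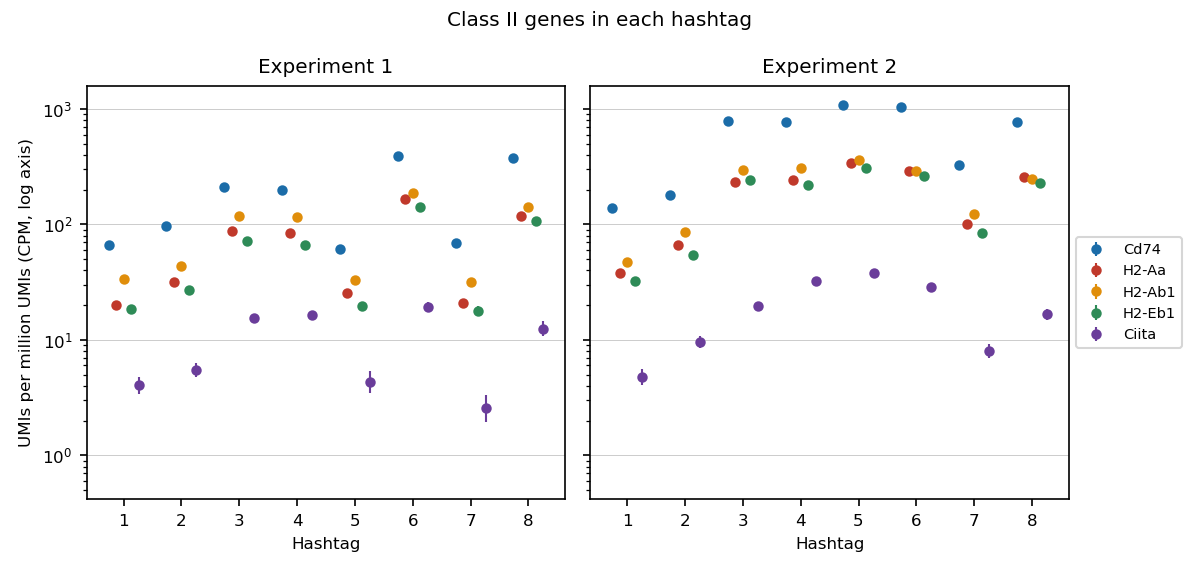
Level of each class II gene in each hashtag, in CPM on a log axis, with experiment 1 on the left and experiment 2 on the right; points are summed UMIs of a hashtag and bars are exact 95% Poisson intervals, often smaller than the point. In experiment 1 the genes are high in hashtags 3, 4, 6 and 8, and in experiment 2 H2-Aa is lowest in hashtag 1 at 37.9 CPM and highest in hashtag 5 at 341 CPM.

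The highest hashtag exceeded the lowest by 8.32-fold for H2-Aa in experiment 1 (95% conditional interval for counting error 7.70 to 8.99) and by 8.99-fold in experiment 2 (8.49 to 9.54). For Cd74 the ratios were 6.36 (6.00 to 6.75) and 7.84 (7.60 to 8.08). The other 3 genes had ratios of 5.93 for H2-Ab1, 7.99 for H2-Eb1 and 7.58 for Ciita in experiment 1, and of 7.77, 9.48 and 7.99 in experiment 2. All 5 passed 2-fold in both experiments, where 10.7% of 8767 genes did so in experiment 1 and 17.2% of 8766 in experiment 2, with median ratios of 1.31 and 1.38 over those genes. The class II genes were chosen knowing that they vary, so these counts describe the choice. Without hashtag 1, the H2-Aa ratio of experiment 2 was 5.19, that of H2-Ab1 was 4.20, that of H2-Eb1 was 5.66 and that of Ciita was 4.73; without hashtag 7, the Ciita ratio of experiment 1 was 4.81.

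A sum over a hashtag cannot tell more expressing cells from more RNA per cell, so the cells were counted. Cells with at least 3 H2-Aa UMIs made up 16.2% of hashtagged cells in experiment 1 (exact Clopper-Pearson 95% interval 15.4 to 17.0) and 27.3% in experiment 2 (26.3 to 28.3). Their share in hashtags 1 to 8 was 6.66, 8.84, 22.7, 22.3, 4.97, 37.3, 4.01 and 25.5% in experiment 1. In experiment 2 it was 5.70, 17.2, 55.3, 34.2, 46.7, 32.6, 5.21 and 11.2%. In experiment 1 the high hashtags thus held more H2-Aa cells, in the same order as their level except among the lowest. Hashtag 8 of experiment 2 stood apart from that pattern, with the third highest H2-Aa level and the third lowest share of H2-Aa cells.

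These shares depend on depth and threshold. With every cell thinned to 10000 UMIs (8224 and 7746 cells were deep enough), they were 9.83% and 18.4%; at 3000 UMIs they were 2.06% and 8.05%, and over hashtags at 10000 UMIs they ran from 2.74 to 24.4% and from 3.70 to 35.1%. With at least 1 UMI in place of 3, they were 29.4% and 41.0%, and with at least 10 they were 5.56% and 15.5%. Free RNA can give single UMIs in cells that do not express a gene, so cells of other types were set beside these. Cells with the stromal markers, meant as that background, themselves carried class II: H2-Aa had a UMI in 62.0% of 208 such cells in experiment 2 (median 50415 UMIs) and in 43.8% of 16 in experiment 1 (46397 UMIs), and whether they hold RNA of more than 1 cell was not tested. Over all hashtagged cells the shares with a UMI were those given above, 29.4% and 41.0%. Among cells with early granulocyte markers, a comparison added after the values were seen, at least 1 H2-Aa UMI was in 9.38% of 96 cells in experiment 1 and in 23.8% of 193 in experiment 2, at medians of 38508 and 37994 UMIs. At least 3 UMIs were in 5.21% and 11.9% of them. The shares of H2-Aa cells in hashtags 5 and 7 of experiment 1 were below these values. So were those in hashtags 1, 7 and 8 of experiment 2. The granulocyte-marker cells were deeper, so these shares cannot rank the hashtags against them. Thinned to 10000 UMIs, hashtags 5 and 7 of experiment 1 had at least 1 H2-Aa UMI in 8.554 and 7.708% of cells. The granulocyte-marker cells had one in 5.263% of 95. In experiment 2, hashtags 1, 7 and 8 had one in 9.491, 8.751 and 13.02%, against 13.99% of 193 granulocyte-marker cells. How the level in the H2-Aa cells of these hashtags compared with that in the granulocyte-marker cells was not tested. In hashtag 1 of experiment 2, 36 H2-Aa cells held 10 to 49 UMIs and 2 held 50 or more. Cd74 stood there at 2262 CPM in the H2-Aa cells against 20.6 CPM in the rest, groups that H2-Aa itself divided. In hashtag 5 of experiment 1, Cd74 stood at 873 against 15.5 CPM.

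**Figure D2:**
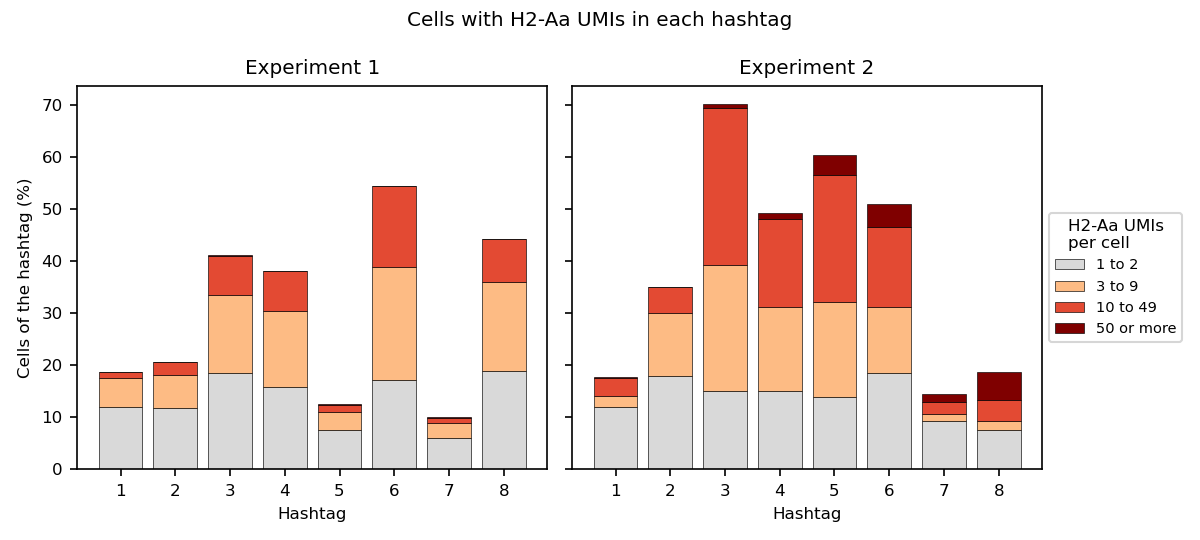
Share of the cells of each hashtag (%) with 1 to 2, 3 to 9, 10 to 49 and 50 or more UMIs of H2-Aa, stacked, for experiment 1 (left) and experiment 2 (right); the cells without a UMI fill the rest to 100%. Cells with 50 or more UMIs are nearly all in experiment 2, where they make up 5.50% of hashtag 8 and 4.39% of hashtag 6.

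A small number of cells carried very much class II RNA in experiment 2. At least 50 H2-Aa UMIs were in 169 of its 8335 cells and in 3 of the 8797 cells of experiment 1. In hashtags 1 to 8 of experiment 2 these cells numbered 2, 1, 10, 13, 39, 41, 16 and 47. They held 30.8% of all H2-Aa UMIs of experiment 2, 27.2% of the Cd74 UMIs and 21.5% of the Ciita UMIs. In hashtag 8 they held 80.1% of the H2-Aa UMIs (79.1 to 81.1), in hashtag 7 62.9%, in hashtag 6 42.6% and in hashtag 3 6.70%. Leaving them out took H2-Aa from 258 to 53.9 CPM in hashtag 8 and from 101 to 38.1 CPM in hashtag 7, but only from 231 to 218 CPM in hashtag 3. High class II levels in experiment 2 thus came from many cells at a moderate level in hashtag 3 and from few cells at a very high level in hashtag 8. Within H2-Aa cells, Cd74 stood at 1217 CPM in hashtag 3 and at 8165 CPM in hashtag 8.

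**Figure D3:**
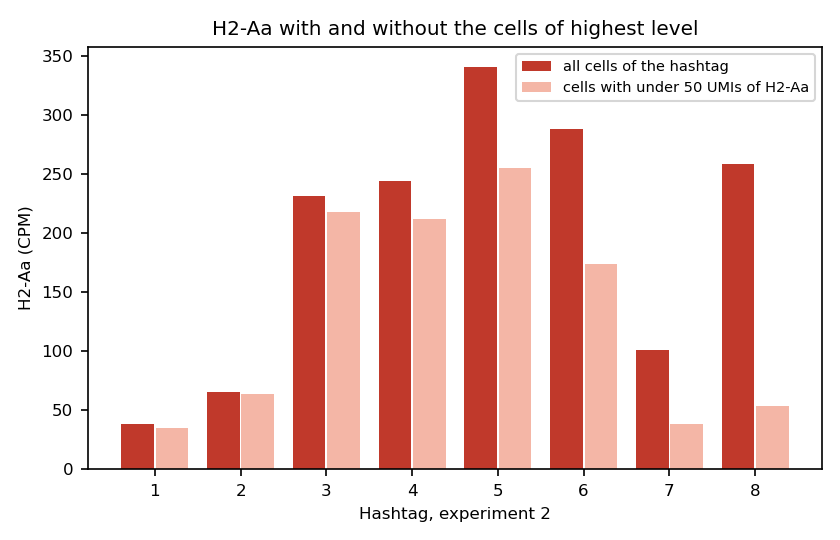
H2-Aa level (CPM) in each hashtag of experiment 2, over all its cells (dark bars) and without the cells that held 50 or more H2-Aa UMIs (light bars). The level of hashtag 8 is 258 CPM with them and 53.9 CPM without, while that of hashtag 3 is 231 and 218 CPM.

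The 169 cells also held genes of conventional dendritic cells, which present antigen as their main role. The 10 markers of that list summed to 12166 CPM in them against 358 CPM in cells without H2-Aa, of which Cst3, the protease inhibitor cystatin C, gave 11394 and 330 CPM. Cst3 was detected in nearly all cells, so the rarer markers say more. Xcr1, a chemokine receptor of cross-presenting dendritic cells, had a UMI in 40 of the 169 cells (23.7%) and in 2 of 4914 cells without H2-Aa. Clec9a, a receptor of the same subset, had one in 30 of them and in 2 of the 4914, and Itgax, the integrin CD11c, in 141 (83.4%) and in 11.1%. The costimulation-linked gene Cd83 had one in 47.9% and 1.34%. The median depth was 20825 UMIs in the former and 25340 in the latter. Of other lists, monocyte or macrophage markers summed to 937 CPM in the 169 cells against 431 CPM in cells without H2-Aa. Stromal markers summed to 942 against 327 CPM, B-lineage markers to 240.5 against 145 CPM and mature T markers to 81.4 against 39.8 CPM. Lower in the 169 cells were granulocyte markers, at 3681 against 5944.5 CPM, and T progenitor markers, at 148 against 1005 CPM. Whether these cells hold RNA of more than 1 cell was not tested. In experiment 1, Itgax had a UMI in 25.1% of the 1420 cells with 3 to 49 H2-Aa UMIs and in 11.9% of those without, and Batf3, a factor of the same dendritic subset as Xcr1, in 9.44% and 3.24%. Other markers of the list did not follow: Naaa went the other way, with a UMI in 12.5% and 14.5%, and Ccr7 differed little, at 10.8% and 8.10%. Clec9a and Cd209a were too sparse to compare there, with a UMI in none of the 1420 cells and in 2 and 4 of the 6207 without H2-Aa. Xcr1 had one in 2 of the 1420. The conventional dendritic list summed to 355 CPM in H2-Aa cells against 273 CPM in the rest. Of this, Cst3 gave 321 and 249 CPM. The 3 cells of 50 or more H2-Aa UMIs in experiment 1 held 1688 CPM of the list.

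Below that level, cells with more H2-Aa held less RNA of the T progenitor list and more of the early progenitor list. The T progenitor markers summed to 976, 877, 744 and 525 CPM in cells with 0, 1 to 2, 3 to 9 and 10 to 49 H2-Aa UMIs in experiment 1, and to 1005, 731, 607 and 333 CPM in experiment 2. The early progenitor markers summed to 688, 750, 828 and 984 CPM and to 603, 734, 776 and 953 CPM over the same steps. The members did not move alike in H2-Aa cells against the rest. Of 10 T progenitor markers, 1 was 2-fold lower in experiment 1 and 6 in experiment 2, beside 0.57% and 1.47% of all genes. No early progenitor marker passed 2-fold, where only 0.479% and 1.7% of all genes were 2-fold higher. Mef2c of that list was 1.456 and 1.465 times as high. Flt3 was at 0.972 and 1.083 times, and Meis1 at 1.003 and 1.035 times. Il2ra, the IL-2 receptor alpha chain that marks T commitment steps, was 0.524 times as high in H2-Aa cells as in the rest in experiment 1 and lower in 8 of 8 hashtags, and 0.428 times as high in experiment 2 and lower in 7 of 8. Bcl11b, a factor of T-lineage commitment, was at 0.661 and 0.497 times. Kit, the stem cell factor receptor, differed little, at 0.970 and 0.916 times, and so did the T-cell factor Gata3, at 1.06 and 0.886 times. Spi1, which encodes the progenitor and myeloid factor PU.1, was 1.45 and 1.69 times as high in H2-Aa cells and higher in 8 of 8 hashtags of each experiment. B-lineage markers summed to 60.6 CPM in H2-Aa cells and 48.6 CPM in the rest in experiment 1, higher in 8 of 8 hashtags, and to 140 and 148 CPM in experiment 2, higher in 7 of 8. Of the defining markers of that list, Pax5 had no UMI in the H2-Aa cells of experiment 1 and 18 in the rest, and Ms4a1 had none in either. Monocyte or macrophage markers summed to 283 against 187 CPM and to 502 against 402 CPM. Of these sums, Ms4a6c alone gave 143 against 51.3 CPM and 224 against 76.8 CPM. The 8 markers of that list did not move together: 3 and 5 were at least 2-fold higher in H2-Aa cells, and 1 and 0 were 2-fold lower. Ly6c2 was at 0.379 and 0.581 times and Lyz2 at 0.717 and 0.606 times. Granulocyte markers summed to 391 against 653 CPM and to 1492 against 5038 CPM, and stromal markers to 29.9 against 34.2 CPM and to 581 against 389 CPM. The part of other cell types in the class II levels was not tested.

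**Figure D4:**
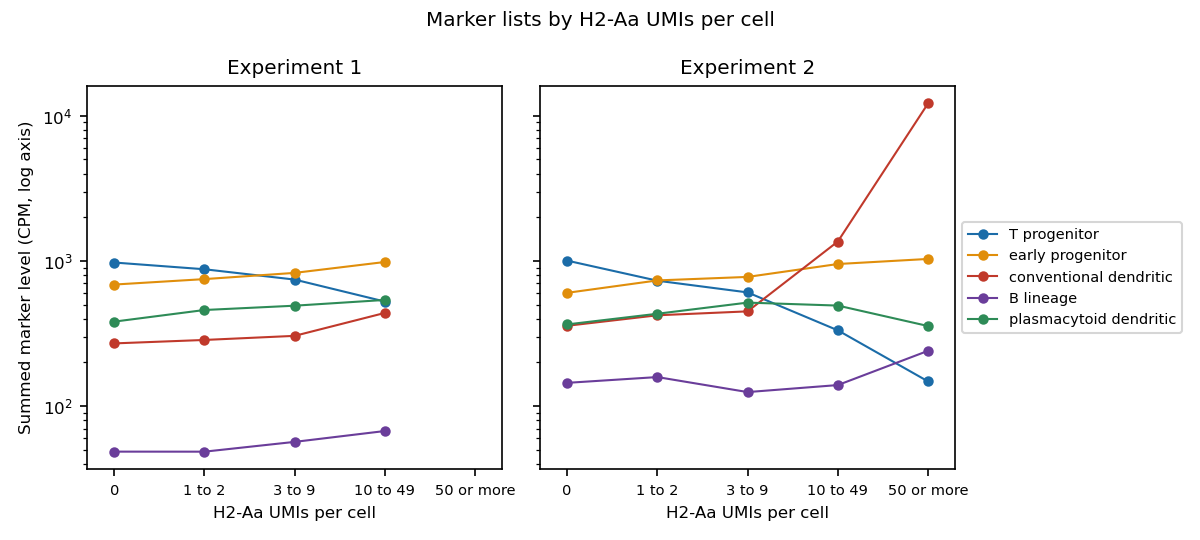
Summed level (CPM, log axis) of 5 marker lists in cells grouped by their H2-Aa UMIs, for experiment 1 (left, without its 3 cells of 50 or more) and experiment 2 (right). T progenitor markers are lower with more H2-Aa in both, and conventional dendritic markers reach 12166 CPM in the cells with 50 or more UMIs in experiment 2.

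The 4 structural genes were found in the same cells. Cd74, H2-Ab1 and H2-Eb1 all had a UMI in 91.1% of the 1423 H2-Aa cells of experiment 1 (89.5 to 92.5) and in 95.1% of the 2274 of experiment 2 (94.2 to 96.0). H2-Aa cells held 83.2% and 94.0% of the Cd74 UMIs, 76.1% and 92.2% of those of H2-Ab1, and 85.9% and 95.2% of those of H2-Eb1. In the rest of the cells, Cd74 had a UMI in 26.0% and 35.6%, H2-Ab1 in 29.7% and 31.6%, and H2-Eb1 in 12.7% and 16.8%. Cells with at least 3 H2-Aa UMIs and no UMI of its partner H2-Ab1 were rare, 32 and 36 in all. Cells with at least 3 UMIs of the invariant chain Cd74 and none of the 3 chains numbered 74 and 106. H2-Aa itself set the division, so 5 of 5 class II genes were over 2-fold higher in H2-Aa cells in each experiment by choice, and none was lower. Of all genes tested, 0.479% were at least 2-fold higher and 0.57% lower in experiment 1, and 1.7% higher and 1.47% lower in experiment 2.

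Ciita marked the same cells less completely. It had a UMI in 49.6% of H2-Aa cells in experiment 1 and 58.4% in experiment 2, against 7.97% and 7.21% of the rest. H2-Aa cells held 63.5% and 87.0% of its UMIs. The level of the chains was graded with it: in cells with 0, 1, 2 and 3 or more Ciita UMIs, H2-Aa stood at 34.4, 162, 236 and 476 CPM in experiment 1 and at 62.9, 282, 517 and 1129 CPM in experiment 2. Cd74 went from 89.2 to 1225 CPM and from 208 to 3650 CPM over the same steps, at median depths between 24571 and 26373 UMIs and between 26011 and 28979 UMIs. Cells with at least 3 Ciita UMIs held at least 3 H2-Aa UMIs in 81.5% and 94.5% of cases. At this depth a cell without a Ciita UMI cannot be called negative for it.

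The ratios between the genes were also taken in cells grouped by their H2-Aa UMIs and in each hashtag. Per UMI of H2-Ab1, cells with no H2-Aa UMI held 1.13 UMIs of Cd74 in experiment 1 and 1.82 in experiment 2, cells with 1 to 2 held 1.67 and 2.56, and cells with at least 3 held 2.20 and 2.92. The counting intervals of these 3 groups did not overlap in either experiment, but they take no account of UMIs that share a cell. H2-Aa itself set the groups, so their ratios describe that division and cannot show a difference apart from it. H2-Eb1 per H2-Ab1 went from 0.254 through 0.510 to 0.735 and from 0.370 through 0.630 to 0.837. Ciita per H2-Ab1 was lower in cells with at least 3, at 0.199, 0.159 and 0.0979 in experiment 1 and 0.154, 0.141 and 0.0829 in experiment 2, where the intervals of the first 2 overlapped. Over hashtags, Cd74 per H2-Ab1 ran from 1.70 (hashtag 4) to 2.65 (hashtag 8) in experiment 1 and from 2.08 (hashtag 2) to 3.57 (hashtag 6) in experiment 2. In cells with basophil markers of experiment 2, a group added after the values were seen, H2-Ab1 had a UMI in 48.7% of 39 cells and H2-Aa in 5.13%.

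Over all hashtagged cells, experiment 2 had more class II RNA than experiment 1. Cd74 stood at 635 against 171 CPM, a ratio of 3.72 (3.68 to 3.76), and H2-Aa at 194 against 65.9 CPM, a ratio of 2.94 (2.88 to 2.99). H2-Ab1 was 2.60, H2-Eb1 3.24 and Ciita 1.95 times as high. At least 2-fold higher were 4 of the 5 genes and 1.86% of 8770 genes, and 0.342% were at least 2-fold lower; the median ratio over all genes was 0.899. Without the cells of 50 or more H2-Aa UMIs, experiment 2 held 137 CPM of H2-Aa and 472 CPM of Cd74. The experiments differ in culture time, library and the hashtagged cultures, which cannot be told apart.

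The wider antigen presentation lists held 41 further genes found in the files, and H2-Ea, H2-Ea-ps and Ifi30 were not analysed here. The lists were chosen with earlier results of these data known. In peptide loading, 4 of 5 genes differed at least 2-fold between hashtags in experiment 1 and 5 of 5 in experiment 2. Over all genes the shares were 10.7% and 17.2%. The list medians were 4.46 and 4.33. H2-DMb1, the beta chain of the exchange factor that frees the groove of invariant chain peptide, stood at 16.3, 21.4, 39.8, 35.6, 15.2, 61.5, 11.0 and 45.9 CPM in experiment 1, in the high hashtags of H2-Aa. It is nearly identical to H2-DMb2, so the division of reads between them is uncertain; H2-DMb2 ranged from 2.25 to 13.4 CPM. H2-DMa, its alpha partner, was far more even, at 60.6 to 110 CPM (1.82-fold). H2-Oa, a chain of the brake on H2-DM, stood at 30.6 and 27.7 CPM in hashtags 7 and 8 and at 7.48 to 10.5 CPM in the other 6, so it was as high in hashtag 7, where class II was low, as in hashtag 8, where it was high. In H2-Aa cells against the rest, H2-DMb1 was 6.82 and 10.7 times as high and H2-DMa 2.61 and 3.15 times, but H2-Oa 1.36 and 2.02 times.

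The factors that bind class II promoters varied over the hashtags by ratios near those of all genes. Of Rfx5, Rfxap, Rfxank, Nfya, Nfyb, Nfyc and Creb1, 0 of 7 differed 2-fold between hashtags in either experiment, beside 10.7% and 17.2% of all genes. At these shares a count of 0 of 7 does not set the list apart. Its median ratios were 1.24 and 1.34, near the all-gene medians of 1.31 and 1.38. In H2-Aa cells against the rest, the list medians were 1.04 and 1.01. Rfx5, a DNA-binding subunit of RFX, ranged from 6.59 to 8.08 CPM and from 4.49 to 6.88 CPM over hashtags. Nfyb, a subunit of NF-Y, ranged from 47.8 to 64.2 CPM and from 42.5 to 59.3 CPM. Among these platform factors and their coactivator, only Ciita passed 2-fold between hashtags. Ciita was among the genes chosen knowing that they vary, so this contrast describes the choice.

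Interferon-response genes separated the hashtags of experiment 1 in a different way from class II. Gbp2, an interferon-induced GTPase chosen from the genes of H2-Aa cells, stood at 37.1, 35.1, 20.1, 17.4, 28.8, 119, 78.6 and 240 CPM in hashtags 1 to 8. Hashtags 6 and 8, high in class II, were the highest for Gbp2, but hashtags 3 and 4, also high in class II, were the lowest of all. Irf1, an activator of Ciita, gave a like picture, with 48.4 and 49.2 CPM in hashtags 3 and 4 and 137 CPM in hashtag 8. Hashtag 7 had the third highest Gbp2 level and the lowest Ciita level, 2.57 CPM. In experiment 2, Gbp2 stood at 6.33, 10.6, 114, 61.3, 140, 197, 21.0 and 31.8 CPM. There its high hashtags, 3 to 6, were also high in class II, and hashtag 8 was high in class II with little Gbp2. Pearson's r of log2(CPM + 1) between H2-Aa and Gbp2 over 8 hashtags was 0.327 in experiment 1 and 0.913 in experiment 2, a description over libraries that share 1 pool each.

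**Figure D5:**
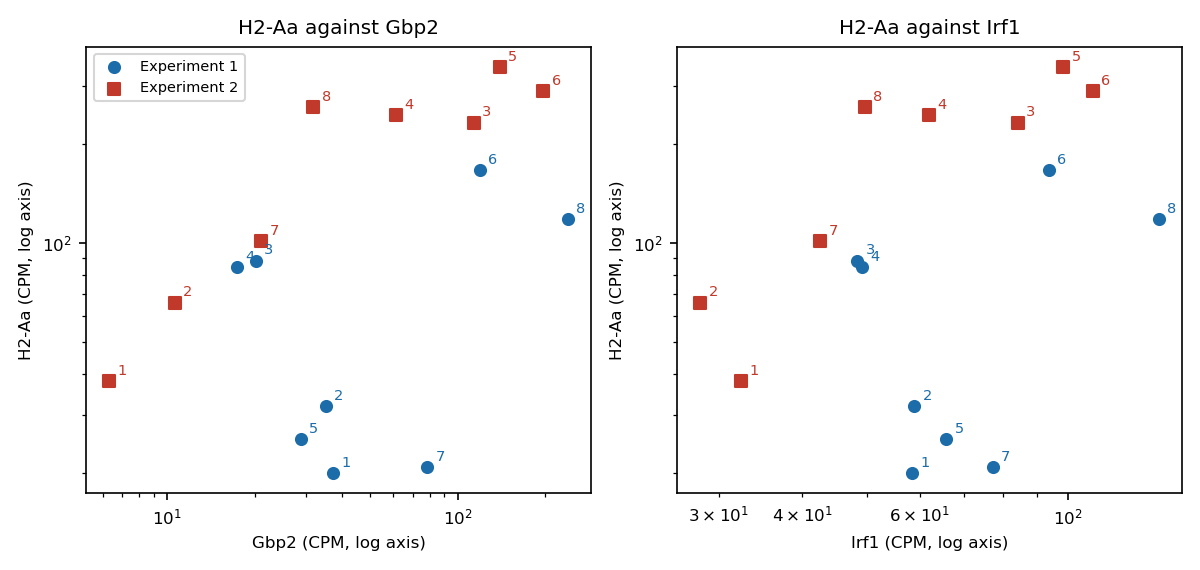
H2-Aa level against Gbp2 (left) and Irf1 (right), both in CPM on log axes, for the 8 hashtags of experiment 1 (circles) and of experiment 2 (squares), numbered. Hashtags 3 and 4 of experiment 1 have H2-Aa at 88.2 and 84.3 CPM with the lowest Gbp2 and Irf1 of that experiment, and hashtags 6 and 8 have 166 and 118 CPM with the highest.

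Interferon gamma RNA itself was seen mainly in experiment 2. Ifng had 13 UMIs in experiment 1 and 1583 in experiment 2, where hashtags 3, 4, 5 and 8 stood at 6.54, 10.1, 20.4 and 19.7 CPM and the other 4 at 0.0353 to 0.374 CPM. Class II was high in all of these 4 hashtags and also in hashtag 6, which had 0.374 CPM. Most Ifng UMIs of experiment 2 were outside the H2-Aa cells, which held 18 of them (0.260 CPM) against 1565 in the rest (9.58 CPM). The share of cells with an Ifng UMI differed less, 0.528% of H2-Aa cells and 0.907% of the rest. Its receptor chain Ifngr1 was at 0.686 times in H2-Aa cells in experiment 1, higher in 0 of 8 hashtags, and at 0.674 times in experiment 2, higher in 4 of 8 with hashtag ratios of 0.476 to 2.06. Of the upstream regulators, 4 of 6 tested in experiment 1 and 6 of 6 in experiment 2 differed 2-fold between hashtags. The shares of all genes were 10.7% and 17.2%. Irf8, a factor of dendritic and monocyte development, was 2.26 and 2.48 times as high in H2-Aa cells, and Spi1 differed between hashtags 1.62-fold in experiment 1 and 3.604-fold in experiment 2.

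Among the endosomal enzymes, 2 of 5 and 3 of 5 differed 2-fold between hashtags, beside 10.7% and 17.2% of all genes. Ctss, cathepsin S, which trims the invariant chain in dendritic and B cells, ranged from 11.5 (hashtag 4) to 72.4 CPM (hashtag 8) in experiment 1, so hashtags 3 and 4 with 13.1 and 11.5 CPM combined high class II with the least Ctss. It was 2.08 and 3.91 times as high in H2-Aa cells. Ctsl, the related protease cathepsin L, was 1.34 and 1.28 times as high there. March1, a ubiquitin ligase that removes class II from the surface, was 2.68 and 3.70 times as high in H2-Aa cells and higher in 8 of 8 hashtags of each. Its level over hashtags ran from 1.58 (hashtag 7) to 14.7 CPM (hashtag 3) in experiment 1. The costimulatory gene Cd86 was 1.53 times as high in H2-Aa cells in experiment 1 and 7.25 times in experiment 2.

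Class I genes varied less than the 5 class II genes, which were chosen knowing that they vary. Between hashtags, 1 of 9 class I genes passed 2-fold in experiment 1 and 6 of 9 in experiment 2, beside 10.7% and 17.2% of all genes. The count of experiment 1 is thus near the share of all genes. The class I medians were 1.65 and 2.09. B2m, the light chain of class I, ranged from 822 to 1413 CPM and from 518 to 1083 CPM. In H2-Aa cells B2m was 1.27 and 1.42 times as high, and no class I gene was 2-fold higher in either experiment. Only 0.479% and 1.7% of all genes were, so that count does not set class I apart. Nlrc5, the class I counterpart of Ciita, stood at 20.8 and 21.7 CPM in hashtags 6 and 8 of experiment 1 and at 11.1 to 13.5 CPM in the other 6. Unlike Ciita, it was thus not raised in hashtags 3 and 4, at 11.5 and 11.4 CPM. Over all lists, 12 of 33 genes tested in experiment 1 and 23 of 35 in experiment 2 differed at least 2-fold between hashtags, beside the 10.7% and 17.2% of all genes given above.

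Of the 15 genes with the largest ratios in H2-Aa cells in both experiments, among genes with at least 50 CPM in H2-Aa cells, 4 were class II genes, and H2-DMb1 and H2-DMa were on the peptide loading list. The others included Gbp2, Ly86, Iigp1, Ms4a6c, Ly6a, Irf8, Ctss and Ccl5. They include interferon-induced genes: Gbp2 was 3.48 and 3.49 times as high, and the GTPase Iigp1 3.06 and 2.90 times. Ly86, whose product MD-1 pairs with the receptor Cd180, was 2.95 and 3.45 times as high, and Ly6a, the stem cell antigen Sca-1, was 2.41 and 3.07 times as high. Gbp2 was higher in the H2-Aa cells of 8 of 8 hashtags in each experiment, with ratios of 1.88 to 7.34 and of 1.36 to 5.80, so the difference was also present within hashtags 3 and 4 of experiment 1. These genes were picked by that ratio, and the minimum was set on the group where they were high. It left out Ciita, at 8.36 and 15.8 times, and H2-DMb2, at 9.73 and 13.8 times.

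Of 8470 genes ranked by how closely they followed H2-Aa over the hashtags of both experiments (the lower of the 2 Pearson r values of log2(CPM + 1), 8 hashtags each), H2-Eb1 came first (0.997 in both experiments), then H2-Ab1 (0.995 and 0.991), Cd74 (0.984 and 0.993) and Ciita (0.960 and 0.935). The hashtags of an experiment share a library. Next came Pik3r5, Daxx, H2-DMb1, Tapbp, Rnf115 and Rnf31. Of these, H2-DMb1 varied widely (r of 0.980 and 0.788), Tapbp, which tethers class I to the peptide transporter, ran from 109 to 163 CPM and from 78.1 to 149 CPM, and Daxx ran only from 31.1 to 34.5 CPM in experiment 1. By the same measure Irf1 was 322nd and Gbp2 368th.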

How the data were processed

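Single-cell mRNA and hashtag libraries of 2 experiments were used. The deposited mRNA values are raw UMI counts per gene and cell, and the deposited hashtag values are raw counts per cell for 8 columns; per the submitters' processing notes Cell Ranger 3.0.0 and the builds mm10 and GRCm38 were used, in roles not given in the sources used here. Other deposited files hold gene and barcode names only.

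Barcodes below 500 detected genes or with 10% or more of their UMIs from mitochondria were dropped, leaving 9332 of 9967 and 10214 of 10556 barcodes. A cell was assigned to its top hashtag where that had at least 50 counts and at least 3 times the second. Cells with no single hashtag were left out of the sums, and no further doublet filter was used. UMIs were summed per hashtag and scaled to CPM (UMIs relative to the hashtag's total). Ratios needed at least 10 UMIs in the lowest group, and shares of all genes were taken over genes averaging 5 CPM or more. No p-value is given, because each experiment is 1 library and its hashtags name no condition; intervals cover counting error only. The code that finds 2-fold ratios was tested on simulated data.

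The class II genes and the gene and marker lists were chosen with earlier results of these data known. Named genes were the class II genes, the antigen presentation lists, the 15 largest ratios in H2-Aa cells with at least 50 CPM there, and the 10 genes most like H2-Aa over hashtags. Alternatives used HTODemux (Seurat 5.3.0), Scrublet (scanpy 1.11.5), edgeR 4.0.16 scaling and DESeq2 1.42.0 size factors. Of 31053 gene IDs, 30934 were in the gene name table. 1 gene of the lists is not reported here.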

Additional observations from a re-analysis of the deposited data

Results flagged for a closer look

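Cells with no single hashtag were used in none of the comparisons, and they held class II RNA too. At least 3 UMIs of H2-Aa were in 145 of 535 such cells in experiment 1, a share of 27.1% (23.4 to 31.1, exact interval), at a median depth of 43493 UMIs. In experiment 2 they were in 452 of 1879 such cells, a share of 24.1% (22.1 to 26.1), at a median depth of 29199 UMIs. Hashtagged cells had lower medians, of 24753 and 26338 UMIs, and shares at a fixed number of UMIs depend on depth. No class II gene had a hashtag far enough from the other 7 to pass the limit for 8 samples in either experiment.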

How the results depend on the processing

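Highest-to-lowest ratios, shares and counts had no direction to reverse. Experiment 2 stayed above experiment 1 for each class II gene under every alternative. Class II levels in H2-Aa cells stayed above the rest, a division set by H2-Aa itself. Moves were counted for shares, list counts, and H2-Aa and Cd74 ratios between hashtags or experiments. A value moved if it left the counting interval or, for list counts, a fold limit. Over the settings 38 moved and 50 did not, and with a hashtag left out 53 moved and 43 did not. The share of H2-Aa cells (16.2% and 27.3%) was 18.0% in experiment 1 with a stricter cell filter (1000 genes or more, mitochondrial UMIs below 5%), and 26.3% in experiment 2 with HTODemux. It was 2.06% and 8.05% with cells thinned to 3000 UMIs, 9.83% and 18.4% at 10000 UMIs (chosen after seeing the data), 29.4% and 41.0% at a threshold of 1 UMI, and 5.56% and 15.5% at 10.

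The highest-to-lowest hashtag ratio of Cd74 in experiment 1 (6.36) was 5.10 at 3000 UMIs and 9.27 without the 5 cells richest in the gene in each hashtag. That of H2-Aa (8.32) was 9.41 with the stricter cell filter, 9.06 at 10000 UMIs and 10.3 without those cells. In experiment 2 the Cd74 ratio (7.84) was 8.40 with HTODemux, 8.97 without the top 5% of Scrublet scores, 8.45 at 10000 UMIs and 9.02 without the 5 richest cells. The H2-Aa ratio (8.99) was 9.67, 10.1, 10.5 at 3000 UMIs and 10.5 without the 5 richest cells, in the same order.

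Experiment 2 over experiment 1 for Cd74 (3.72) was 3.62 with looser hashtag limits, 3.62 with HTODemux, 3.50 with the stricter cell filter, 3.68 without the top Scrublet scores, 4.55 and 4.19 when thinned to 3000 and 10000 UMIs, 3.99 with TMM and 4.13 with DESeq2 size factors. For H2-Aa (2.94) it was 2.84 with looser limits, 2.83 with HTODemux, 2.82 with the stricter filter, 3.74 and 3.23 when thinned, 3.15 with TMM and 3.26 with DESeq2. For Ciita it lay between 1.87 and 2.17, on both sides of 2-fold. The cause of these shifts was not tested.

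Leaving out each hashtag in turn gave shares of 13.04 to 18.1% and 22.1 to 30.4%. Cd74 ratios lay at 5.89 to 6.36 and 6.01 to 7.84, and H2-Aa ratios at 5.92 to 8.32 and 5.19 to 8.99. Counts of list genes past 2-fold lay at 10 to 12 and 21 to 23. Experiment 2 over experiment 1 lay at 3.30 to 4.57 for Cd74 and 2.57 to 3.78 for H2-Aa. Depth limits the sparse genes most: a cell without a Ciita UMI may still express it. No paired analysis was possible because the hashtags carry no replicate number or condition and the values come from no test.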
